A study of Mus musculus with 9 samples.

Results

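Matrix metalloproteinases (MMPs) and their tissue inhibitors (TIMPs) were examined in LLC1, a mouse cancer cell line derived from Lewis lung carcinoma, after contact with T cells. The genes were chosen by name as 8 members, the proteases Mmp2, Mmp3, Mmp9, Mmp13 and Mmp14 and the inhibitors Timp1, Timp2 and Timp3, out of 19305 genes listed in the series. LLC1 cells were kept for 24 h in direct contact with artificially generated Th9, Th17 or Th0 cells at 1 T cell per LLC1 cell, and the RNA sequenced was that of the cells left once a sort had removed CD4+ cells. Each group had 3 libraries, and no group of LLC1 cells without T cells was used here. The series title names epithelial-mesenchymal transition and metastatic spread under Th9 and Th17 cells as the question, and MMPs are among the genes that such a change can involve.

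MMPs are zinc-dependent proteases that are made as inactive proenzymes and cut proteins of the extracellular matrix. Plasmin, other MMPs and furin-type convertases activate them, and TIMPs bind the active site and block it. In tumours, stromal as well as cancer cells make MMPs, and their genes are classic targets of inflammatory cytokines acting through AP-1, ETS and NF-kB factors.

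The values are normalized read counts rounded to whole numbers, in a table with Th9 and Th0 libraries (18816 genes) and a table with Th17 and the same Th0 libraries (18511 genes). Levels are given as these normalized counts, and fold changes as differences of mean log2(value + 1), which understates the change of low genes. A gene was called at a Benjamini-Hochberg adjusted p under 0.05 over all genes tested with limma. Libraries held 12719428 to 17505356 approximate reads. The Th0 replicate 1 library stood apart, with 31.1% of its reads on the RNA genes mt-Rnr1, mt-Rnr2 and Gm26917, against 14.9% to 21.8% in the other libraries, so results are also given without it where that changes the call of an MMP or TIMP gene. Nothing in the labels tells whether replicates came from separate cultures, and p-values therefore cover only the spread between these samples, which may be technical. In such bulk samples, fewer cells of a type and less RNA per cell cannot be told apart. Of the line's epithelial markers, Krt8 and Krt18 were well above 0 in all libraries. Krt7 and Krt19 had only 2 to 20 normalized counts per library, and Epcam and Cdh1 were listed in neither table.

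Of the 8 members, 7 were listed in the table with Th9 and 6 in the table with Th17. Mmp2 (gelatinase A) was listed in neither table, and Mmp9 (gelatinase B) only in the table with Th9. The lowest listed gene of each table had 5 approximate reads over its 6 libraries. All 7 listed members passed the filter for testing in the table with Th9 (mean normalized count not under 10), as did all 6 in the table with Th17. Mmp9 passed only through the Th9 libraries, and Timp3 lay close to the limit, with a Th9 mean below it.

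The promoters of Mmp3, Mmp13 and Mmp10, another stromelysin, are shown because these genes were higher with Th9 cells and lie in the same MMP gene cluster on chromosome 9. Timp2, the most abundant inhibitor, is shown beside them. The sequences are from RefSeq (GRCm38.p6) and cover the 250 bases before each annotated start, 5′ to 3′ on the gene's strand, at chr9:7445572-7445821 (+) for Mmp3, chr9:7272264-7272513 (+) for Mmp13, chr9:7502092-7502341 (+) for Mmp10 and chr11:118355412-118355661 (-) for Timp2. The annotation given with the values starts Timp2 at chr11:118355740 (-). The Timp2 stretch, taken before the RefSeq start, thus lies within the gene as annotated there. Capitals mark the AP-1 site TGANTCA and the TATA box TATAAA.
Mmp3: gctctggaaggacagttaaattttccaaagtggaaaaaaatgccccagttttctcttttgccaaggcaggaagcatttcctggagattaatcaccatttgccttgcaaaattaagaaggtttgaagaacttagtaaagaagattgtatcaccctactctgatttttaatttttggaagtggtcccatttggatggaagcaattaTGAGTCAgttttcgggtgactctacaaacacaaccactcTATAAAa
Mmp13: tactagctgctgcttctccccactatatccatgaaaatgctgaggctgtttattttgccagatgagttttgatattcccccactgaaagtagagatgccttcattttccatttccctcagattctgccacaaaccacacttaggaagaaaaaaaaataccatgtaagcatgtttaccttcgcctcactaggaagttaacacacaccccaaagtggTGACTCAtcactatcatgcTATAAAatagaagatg
Mmp10: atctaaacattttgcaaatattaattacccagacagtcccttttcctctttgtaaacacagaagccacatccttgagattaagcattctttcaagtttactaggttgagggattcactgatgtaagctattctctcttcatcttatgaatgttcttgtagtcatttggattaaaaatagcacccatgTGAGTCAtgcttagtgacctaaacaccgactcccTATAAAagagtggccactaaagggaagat
Timp2: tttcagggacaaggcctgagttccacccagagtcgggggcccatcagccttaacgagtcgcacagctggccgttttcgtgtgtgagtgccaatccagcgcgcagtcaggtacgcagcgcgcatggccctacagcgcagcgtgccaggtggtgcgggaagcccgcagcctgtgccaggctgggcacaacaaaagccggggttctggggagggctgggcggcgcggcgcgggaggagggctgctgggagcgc

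An AP-1 match lay 46 to 40 bases before the start of Mmp3, 35 to 29 bases before that of Mmp13 and 63 to 57 bases before that of Mmp10, each followed by a TATAAA match closer to the start. The Timp2 stretch held neither, and 68.0% of its bases were G or C, against 37.2% to 40.4% in the MMP genes shown. Both strands were searched in the window of 250 bases before to 50 after the start, and neither motif overlapped the other in the sequences shown. TGANTCA was found in 7.81% of 32851 such windows of all genes, TATAAA in 13.6%, and both in 1.54%. Of the 10 MMP genes of chromosome 9 with an entry, 8 held both motifs. Of the 12 other MMP and TIMP genes with an entry, 0 held TGANTCA and 1 held TATAAA. The ETS site AGGAAG, found in 35.4% of all windows, occurred in those of Mmp3, Mmp13, Mmp14, Timp1 and Timp3. The NF-kB consensus, found in 8.46% of all windows, occurred in none of the 6 members with an entry. A match describes letters and is not evidence that a factor binds there. Mmp2 and Mmp9 have no entry.

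Contact with Th9 cells went with higher RNA of the stromelysin Mmp3, the collagenase Mmp13 and the gelatinase Mmp9 than contact with Th0 cells. Mmp14 and Timp2 were slightly lower, and Timp1 and Timp3 did not pass the test. In limma on all 14475 genes tested, 3 of the 7 listed members rose and 2 fell. Over all genes tested, 13.4% rose and 11.9% fell (25.2% in all). Of the 5 members with a mean of at least 10 in both groups, which leaves out Mmp9 and Timp3, 2 rose (Mmp3 and Mmp13) and 2 fell. Without Th0 replicate 1, 3 members again rose and 2 fell, where 18.1% and 19.1% of genes did (37.1% in all). Summed T cell markers were also higher in the Th9 libraries (1471 to 2051 normalized counts, against 93 to 200 in the Th0 libraries), and the part of T cell RNA in these differences was not tested.

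Mmp3 (ENSMUSG00000043613, GRCm38 chr9:7445822-7455972) encodes stromelysin-1, which degrades proteoglycans, laminin and fibronectin and activates other proMMPs. Its normalized counts were 1042, 1133 and 1091 in the Th9 libraries, against 97, 119 and 121 in the Th0 libraries. The groups did not overlap, and every Th9 library was far above every Th0 library. Mmp3 rose by 3.27 on the log2 scale (SE 0.11, 95% interval 3.04 to 3.51, limma adjusted p = 3.5e-09), a fold change of 9.66.

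Mmp13 (ENSMUSG00000050578, GRCm38 chr9:7272514-7283333) encodes collagenase-3, which cuts fibrillar collagens. It had 235, 298 and 286 normalized counts in the Th9 libraries, against 23, 32 and 16 in the Th0 libraries. The lowest Th9 library was thus well above the highest Th0 library. The log2 fold change was 3.52 (SE 0.22, 95% interval 3.03 to 4.01, limma adjusted p = 8.6e-07), or 11.5-fold.

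Mmp9 (ENSMUSG00000017737, GRCm38 chr2:164940780-164955850), a gelatinase that cuts denatured collagen and type IV collagen, was nearly silent with Th0 cells. Its normalized counts were 62, 61 and 56 in the Th9 libraries, against 1, 0 and 1 in the Th0 libraries. Over the 3 libraries of a group, about 188 reads with Th9 cells stood against about 2 with Th0 cells, a ratio of 86.8 (exact 95% interval 23.7 to 722, counting error only). The fitted log2 fold change was 5.25 (SE 0.42, limma adjusted p = 4.7e-06), and it depends on the pseudocount, being 3.52 with a pseudocount of 5. The table with Th17 does not list Mmp9, which means that it had too few reads over the Th17 and Th0 libraries together. The lowest listed gene there had 5 approximate reads over the 6 libraries. A level or fold change of Mmp9 with Th17 cells can therefore not be given.

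Mmp14 (ENSMUSG00000000957, GRCm38 chr14:54431612-54441265) encodes the membrane-anchored MT1-MMP, which activates proMmp2 on the cell surface with the help of Timp2. It had 1823, 1707 and 1697 normalized counts in the Th9 libraries, against 1907, 2172 and 2251 in the Th0 libraries. The groups did not overlap, but the highest Th9 library lay close to the lowest Th0 library. Mmp14 fell by 0.27 on the log2 scale (SE 0.09, limma adjusted p = 0.037). The call was lost when any library other than Th0 replicate 1 was left out (adjusted p 0.0856 to 0.144 without Th9 replicate 1, 2 or 3 or Th0 replicate 2 or 3) and when all libraries were scaled to the same total (log2 fold change -0.17, adjusted p = 0.406).

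Timp2 (ENSMUSG00000017466, GRCm38 chr11:118301069-118355740), a secreted inhibitor, was the most abundant TIMP in every library. Normalized counts were 2171, 2146 and 1980 with Th9 cells, against 2641, 3128 and 2908 with Th0 cells, so that every Th9 library was below every Th0 library. It fell by 0.46 on the log2 scale (SE 0.09, 95% interval -0.65 to -0.27, limma adjusted p = 0.00261), and with the same total per library by 0.35 (adjusted p = 0.0702, not called). That scaling moved the median log2 fold change of all genes by 0.108.

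The inhibitors Timp1 and Timp3 did not pass the test with Th9 cells. Timp1 (ENSMUSG00000001131, GRCm38 chrX:20870166-20874735), a secreted inhibitor that also binds proMmp9, had 98, 80 and 81 normalized counts with Th9 cells, against 107, 96 and 91 with Th0 cells. The groups overlapped, and the log2 difference was -0.18 (95% interval -0.52 to 0.15, limma adjusted p = 0.422). Timp3 (ENSMUSG00000020044, GRCm38 chr10:86300372-86349506), which stays bound to the matrix and also inhibits Adam17, had 9, 6 and 7 normalized counts with Th9 cells, against 13, 15 and 10 with Th0 cells. The groups did not overlap, yet at these few reads the log2 difference of -0.71 had a 95% interval of -1.55 to 0.12 (limma adjusted p = 0.199). Timp1 lies within Syn1 and Timp3 within Syn3, both on the opposite strand, and Timp2 overlaps Cep295nl on the same strand. Whether the counting used the strand is not given in the sources used here, so reads of these pairs cannot be told apart.

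**Figure D1:**
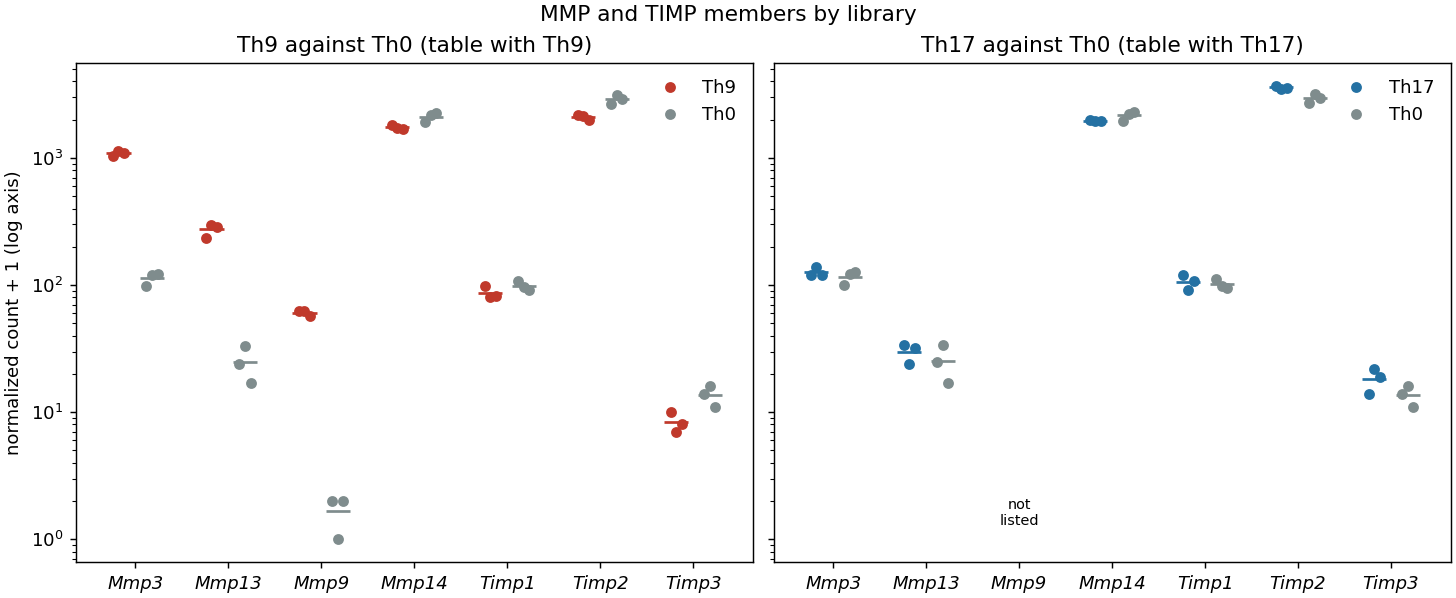
Normalized count + 1 (log axis) of the 7 listed members in each library, Th9 with Th0 on the left and Th17 with the same Th0 libraries on the right; points are libraries and bars are group means. Mmp3 lay between 1042 and 1133 in Th9 libraries and between 97 and 121 in Th0 libraries, while in the right panel Mmp3, Mmp13, Mmp14, Timp1 and Timp3 overlap between groups.

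Contact with Th17 cells did not go with such a change. In the table with Th17, 0 of the 6 listed members were called in either direction by limma, where 1.58% of the 14342 genes tested were (1.19% higher and 0.39% lower). Timp2 had the smallest unadjusted limma p of these members (0.0064, adjusted p = 0.119). Without Th0 replicate 1, 1 member was called higher (Timp2) and 1 lower (Mmp14), where 6.85% and 9.7% of the genes tested were (16.6% in all).

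Mmp3 had 120, 139 and 120 normalized counts with Th17 cells, against 99, 122 and 125 with Th0 cells. The groups overlapped, and the log2 difference of 0.13 had a 95% interval of -0.17 to 0.44 (limma adjusted p = 0.67). Mmp13 was likewise within the Th0 spread. It had 33, 23 and 31 normalized counts in the Th17 libraries, against 24, 33 and 16 in the Th0 libraries, with a log2 difference of 0.28 (95% interval -0.37 to 0.94). These intervals lie below the size of the Th9 differences of both genes.

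Timp2 was higher in every Th17 library than in every Th0 library, without passing the test. Its normalized counts were 3699, 3482 and 3573 with Th17 cells, against 2716, 3196 and 2984 with Th0 cells. The log2 difference was 0.28 (SE 0.08, unadjusted p = 0.0064, limma adjusted p = 0.119). The gene was called without Th0 replicate 1 (0.21, adjusted p = 0.0133), with libraries weighted by their spread (0.24, adjusted p = 0.00508) and with the same total per library after removal of mt-Rnr1, mt-Rnr2 and Gm26917 (0.30, adjusted p = 0.029).

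Mmp14 had 1976, 1956 and 1960 normalized counts in the Th17 libraries, against 1961, 2219 and 2310 in the Th0 libraries, and the groups overlapped through Th0 replicate 1. The log2 difference was -0.14 (limma adjusted p = 0.405), and -0.21 without that library (adjusted p = 0.0143). Timp1 had 119, 90 and 106 normalized counts with Th17 cells, against 110, 98 and 93 with Th0 cells (log2 difference 0.06, 95% interval -0.27 to 0.39). Timp3 had 13, 21 and 18 with Th17 cells, against 13, 15 and 10 with Th0 cells (log2 difference 0.42, 95% interval -0.29 to 1.12). Neither inhibitor separated the groups.

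The difference between the helper cells themselves was tested with all 9 libraries brought to 1 scale, since the 2 tables had been normalized separately. Of the 6 members listed in both tables, 2 were higher and 2 lower with Th17 than with Th9 cells, where 9.8% and 11.0% of the 14372 genes tested were (20.8% in all). Without Timp3, whose Th9 mean was below 10, 1 of 5 was higher and 2 were lower. Without Th0 replicate 1 the counts were 3 and 2, where 15.7% and 16.1% of genes were called (31.8% in all). Mmp3 averaged 124 ± 10.7 normalized counts with Th17 cells and 1095 ± 46.5 with Th9 cells (SD, n = 3 each), a log2 difference of -3.14 (SE 0.11, limma adjusted p = 4.6e-11). Mmp13 averaged 28.4 ± 5.19 with Th17 cells and 275 ± 33.9 with Th9 cells, a log2 difference of -3.24 (SE 0.23, limma adjusted p = 1.4e-07).

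The inhibitors went the other way. Timp2 averaged 3506 ± 107 normalized counts with Th17 cells and 2112 ± 103 with Th9 cells (SD, n = 3 each), a log2 difference of 0.73 (SE 0.07, limma adjusted p = 5.2e-06). Timp3 averaged 17.0 ± 3.95 with Th17 cells and 7.38 ± 1.53 with Th9 cells, a log2 difference of 1.09 (SE 0.33, limma adjusted p = 0.031). That call was lost without Th9 replicate 2 or 3 or Th17 replicate 2 or 3 (adjusted p 0.0782 to 0.139) and when all libraries were given equal totals (adjusted p = 0.0516). Mmp14 (0.13, 95% interval -0.02 to 0.29) and Timp1 (0.24, 95% interval -0.08 to 0.55) did not pass. Mmp14 was called higher with Th17 cells without Th0 replicate 1 (adjusted p = 0.0468). The comparisons with Th0 share the Th0 libraries and are given side by side only.

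**Figure D2:**
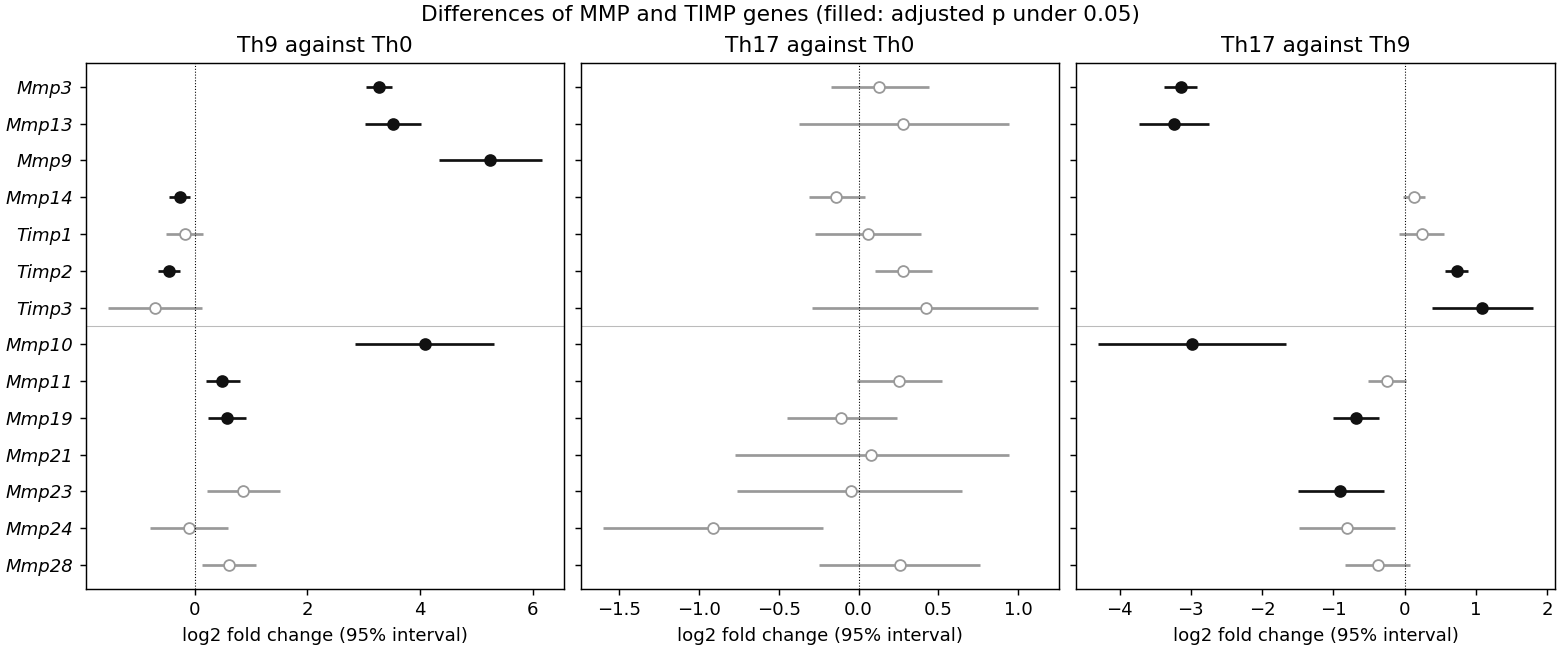
Log2 fold change with its 95% interval (bars) for the listed MMP and TIMP genes tested in each comparison, members above the grey line and other MMP genes below it; filled points have an adjusted p under 0.05, and each panel has its own axis. Mmp3 and Mmp13 stand at 3.27 and 3.52 for Th9 against Th0, at 0.13 and 0.28 for Th17 against Th0, and at -3.14 and -3.24 for Th17 against Th9.

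Levels of different genes were compared as normalized counts per kilobase of GENCODE M21 exon. GENCODE M21 ends Mmp14 at chr14:54445364, while the annotation given with the values ends it at chr14:54441265. Its exon length of 5960 bases may thus exceed the one counted, and its levels per kb, and sums that hold them, may be too low. With Th9 cells, Mmp3 had the highest level of all listed MMP and TIMP genes, 604 ± 25.3 per kb (SD, n = 3), where with Th0 cells it was the fourth at 62.4 ± 7.39 per kb. Timp2 came next with Th9 cells at 539 ± 26.6 per kb, and its highest library (557) was below the lowest of Mmp3 (579). Mmp14 followed at 292 ± 11.8 per kb. Mmp13 (102 ± 12.5 per kb) and Timp1 (97.2 ± 11.4 per kb) followed and did not differ beyond their spread. Mmp9 reached 16.9 ± 0.908 per kb and Timp3 0.900 ± 0.188 per kb.

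The order with Th17 cells was that with Th0 cells among the members listed in both. In the Th17 libraries Timp2 led at 920 ± 28.0 per kb, before Mmp14 (330 ± 1.78), Timp1 (118 ± 16.4), Mmp3 (70.1 ± 6.09), Mmp13 (10.8 ± 1.98) and Timp3 (2.13 ± 0.496). In the Th0 libraries of the same table the levels were 761 ± 61.7 per kb for Timp2, 363 ± 30.4 for Mmp14, 113 ± 9.84 for Timp1, 64.0 ± 7.90 for Mmp3, 9.10 ± 3.18 for Mmp13 and 1.56 ± 0.309 for Timp3. Each of these genes was clear of the next in every library of both groups.

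The balance of proteases and inhibitors was described by the summed levels per kb of the listed MMP members over those of the TIMP members, with no test, as the members were chosen with results known. The ratio was 1.48, 1.63 and 1.69 in the Th9 libraries, against 0.478, 0.485 and 0.531 in the Th0 libraries, a log2 difference of 1.68. Proteases thus outweighed inhibitors on this scale in every Th9 library and in no Th0 library. Mmp3 made up 58.4% to 60.2% of the protease sum with Th9 cells, against 14.1% to 14.9% with Th0 cells. Without Mmp3 the log2 difference of the ratio was 0.61, and with sums not divided by gene length it was 0.95, so its size rests on Mmp3 and on the scaling to length. With Th17 cells the ratio was 0.378, 0.415 and 0.392, against 0.478, 0.485 and 0.531 with Th0 cells, and Timp2 held 87.5% to 89.6% of the inhibitor sum in the Th17 libraries. These are RNA levels, and activity of the proteins was not measured.

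**Figure D3:**
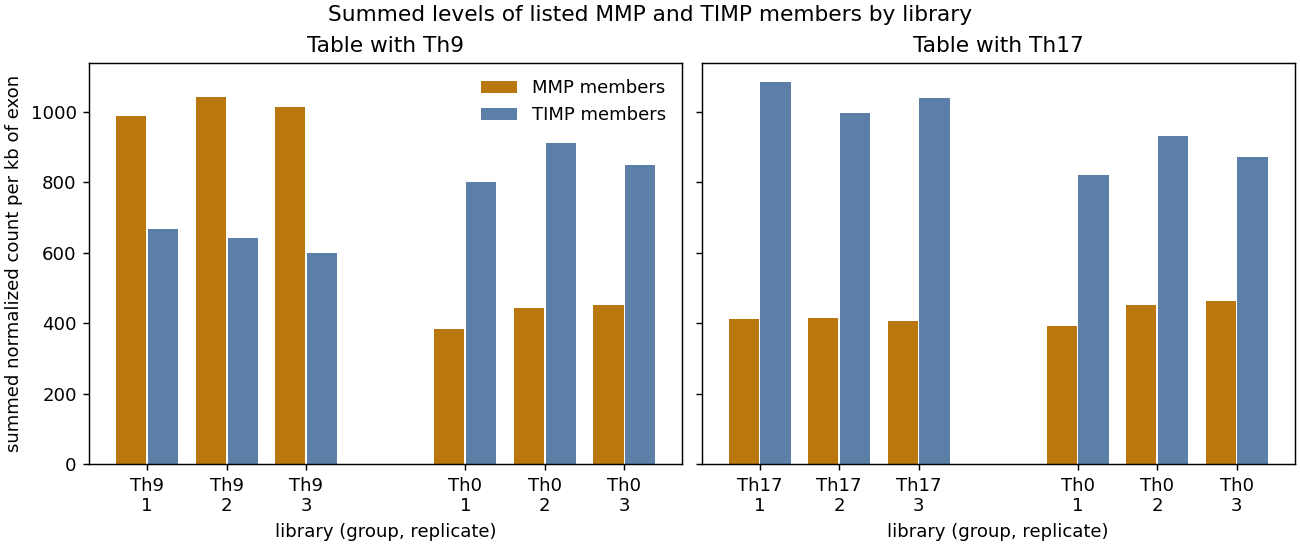
Summed normalized counts per kb of exon of the listed MMP members and TIMP members in each library, with Th9 and Th0 on the left and Th17 and Th0 on the right. The MMP bar is the taller of the pair in the Th9 libraries, where the ratio was 1.48 to 1.69, and the shorter in all others.

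Of the 10 other MMP genes listed, 6 were tested with Th9 cells, and 3 rose and 0 fell by limma, where 13.4% and 11.9% of all genes tested did. Without Mmp10, which passed the filter only through the Th9 libraries, 2 of 5 rose. Mmp10 (ENSMUSG00000047562, GRCm38 chr9:7502352-7510238) encodes stromelysin-2, a close paralog of Mmp3 with which reads may be shared. It had 59, 40 and 46 normalized counts with Th9 cells, against 5, 3 and 0 with Th0 cells. About 152 reads with Th9 cells stood against about 7 with Th0 cells, a ratio of 20.1 (exact 95% interval 9.50 to 50.7, counting error only). The fitted log2 fold change of 4.08 (limma adjusted p = 3.0e-04) was 3.31 without Th0 replicate 3, 2.84 with a pseudocount of 5 and 5.05 with libraries weighted by their spread.

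Mmp11 and Mmp19 rose less. Mmp11, stromelysin-3, had 149, 185 and 144 normalized counts with Th9 cells, against 121, 104 and 112 with Th0 cells (log2 fold change 0.49, limma adjusted p = 0.0238). Mmp19 had 110, 140 and 129 with Th9 cells, against 89, 75 and 89 with Th0 cells (0.57, limma adjusted p = 0.0169). No Th9 library of either gene overlapped the Th0 libraries. The call of Mmp11 was lost when Th9 replicate 1 or 2 or Th0 replicate 2 or 3 was left out (adjusted p 0.063 to 0.133). That of Mmp19 was lost when Th9 replicate 2 or 3 or Th0 replicate 2 was left out (0.0507 to 0.0926). Mmp11, Mmp19, Mmp24 and Mmp28 each overlap another annotated gene on the opposite strand.

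Mmp23 (0.86, adjusted p = 0.0526), Mmp28 (0.61, adjusted p = 0.0618) and Mmp24 (-0.11, adjusted p = 0.835) did not pass in limma. Without Th0 replicate 1, Mmp23 (1.05, adjusted p = 0.00762) and Mmp28 (0.62, adjusted p = 0.0477) were called higher with Th9 cells. Both were also called with equal library totals, with library weights and with all 9 libraries in the fit (adjusted p 0.0228 to 0.0395). Mmp23 was further called without Th0 replicate 3 (1.07, adjusted p = 0.0419) and with a pseudocount of 5 (0.77, adjusted p = 0.0485), but its value was 0.47 without Th0 replicate 2 (adjusted p = 0.132). The genes below the filter were Mmp1b, Mmp12, Mmp17 and Mmp21. Mmp12, the macrophage elastase, had 1, 0 and 1 normalized counts with Th9 cells, against 9, 4 and 3 with Th0 cells, a ratio of about 2 to 15 reads of 0.123 (exact 95% interval 0.0137 to 0.530, counting error only). Mmp1b, which overlaps Mmp12 on the opposite strand, had 4, 7 and 8 with Th9 cells, against 0, 2 and 2 with Th0 cells. About 19 reads stood against about 4, a ratio of 4.39 (exact 95% interval 1.46 to 17.7, counting error only). With Th17 cells, 0 of the 6 other MMP genes tested were called by limma, where 1.58% of all genes tested were. Of these, Mmp24 had the smallest unadjusted limma p (0.015, log2 difference -0.91, adjusted p = 0.163). Between the helper cells, Mmp10 (-2.98, with a mean below 10 in Th17 libraries), Mmp19 (-0.68) and Mmp23 (-0.90) were lower with Th17 than with Th9 cells (limma adjusted p = 0.00283, 0.0041 and 0.0361). The call of Mmp23 was lost without any 1 of the Th17 or Th9 libraries (0.0509 to 0.131), and the value of Mmp10 was -2.45 without Th17 replicate 2.

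Mmp13, Mmp3 and Mmp10 lie together. The 5 listed MMP genes of chromosome 9 (Mmp13, Mmp12, Mmp1b, Mmp3 and Mmp10) span 238 kb, chr9:7272514-7510238 in GRCm38. Mmp13 and Mmp3 were called higher with Th9 cells, as was Mmp10, which passed the filter only through the Th9 libraries. Mmp12 and Mmp1b did not pass it. In the few reads given above, Mmp12 was lower and Mmp1b higher with Th9 cells. Mmp13, Mmp3 and Mmp10 hold the AP-1 and TATAAA matches printed above. Both motifs also occurred in the window of Mmp1b and in a window of Mmp12, so they do not set the called genes apart. Mmp9, which had the highest fitted log2 fold change of the MMP genes tested with Th9 cells, lies on chromosome 2.

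**Figure D4:**
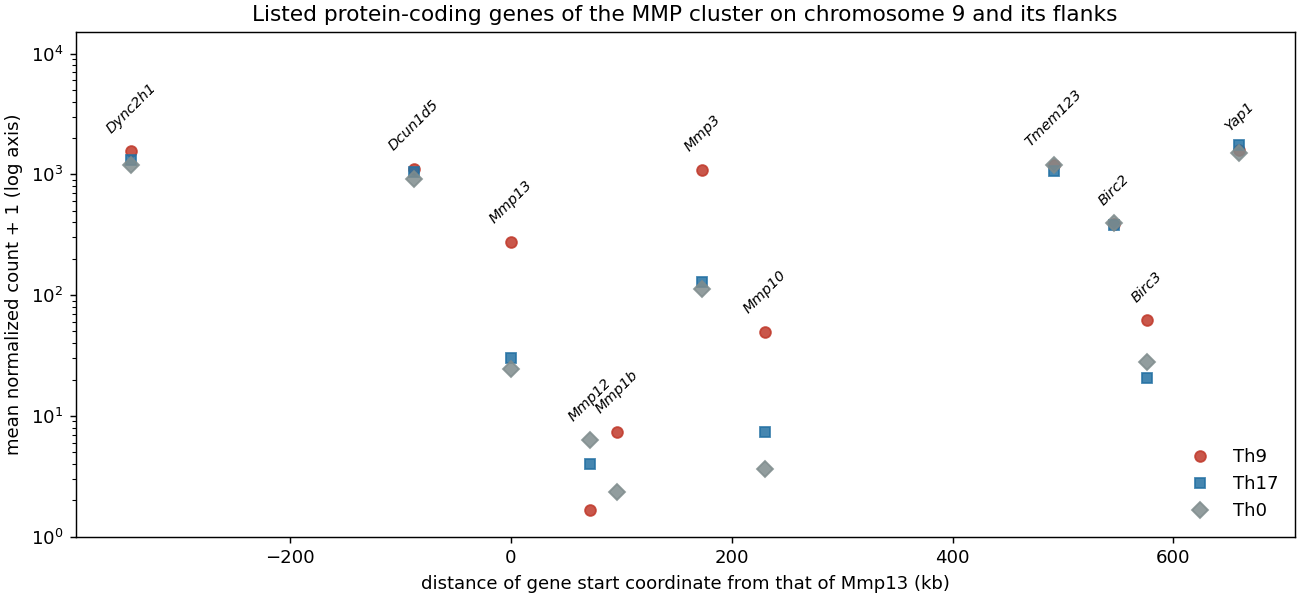
Mean normalized count + 1 (log axis) of listed protein-coding genes against the distance of their start coordinate from that of Mmp13, in kb, with means for Th9 and Th0 from the table with Th9 and for Th17 from its own table. Within the cluster Mmp13, Mmp3 and Mmp10 are higher with Th9 cells, while Tmem123 (log2 fold change 0.01) and Birc2 (0.00 after rounding) have near-equal means; of the other flanking genes, Birc3 (1.14) and Dync2h1 (0.36) were called higher with Th9 cells.

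Genes with a pattern most like Mmp3 and Mmp13 over the 9 libraries were sought among the 10622 genes whose mean reached 50, by Pearson's r of log2 levels. For Mmp3 they were Nupr1 (r = 0.995), Fam110c (0.995) and the chemokine Ccl2 (0.995). Those for Mmp13 were Gadd45a (0.994), Glrp1 (0.994) and Ell2 (0.993). These r describe mainly the step between Th9 and the other libraries, which all of these genes share, and they are computed within the same libraries. Mmp9 is listed only in 1 table and was not compared.

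The genes around the MMPs were read in lists of proteases, activators, regulators, inducers and substrates. With Th17 cells 2 genes over all 8 lists were called by limma, Plaur (1 of 8 tested in its list) and Nfkb2 (1 of 16 tested in its list). Of all genes tested, 1.58% were called, and the account below is of Th9 cells unless stated. Counts for Th9 cells stand against 13.4% of all genes tested rising and 11.9% falling. The median log2 fold change of all genes tested was -0.01 for Th9 against Th0.

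Among related proteases, 3 of 8 tested ADAM genes rose and 1 fell (list median 0.29). The shedding proteases Adam17 (0.47, adjusted p = 0.00415) and Adam9 (0.46, adjusted p = 0.00445) rose with Adam19 (0.65), and Adam33 fell by 1.71 (adjusted p = 3.1e-04, limma). Of 8 ADAMTS genes, 4 rose and 2 fell (list median 0.26), or 3 and 2 of 7 without Adamts7 (list median 0.20), which passed the filter only through the Th9 libraries. Adamts7, which degrades cartilage oligomeric matrix protein, averaged 50.7 ± 6.81 normalized counts with Th9 cells and 5.0 ± 0.0 with Th0 cells (SD, n = 3 each; log2 fold change 3.10). Adamts6 (1.42) and the aggrecanase Adamts4 (1.01) rose as well, and Adamts9 fell by 1.18 (limma adjusted p 1.1e-05 to 0.00673 for these genes).

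In the plasmin system and among the convertases that activate proMMPs, 2 of 8 tested genes rose and 2 fell (list median -0.13). The plasminogen activator Plat fell by 1.53 on the log2 scale (135 ± 13.1 normalized counts with Th9 cells and 391 ± 27.2 with Th0 cells, SD, n = 3 each, limma adjusted p = 2.7e-06). Serpine2, an inhibitor of plasminogen activators, rose by 1.11 (43.3 ± 2.89 normalized counts with Th9 cells and 19.7 ± 2.31 with Th0 cells, SD, n = 3 each, limma adjusted p = 0.0048). With Th17 cells the urokinase receptor Plaur fell by 0.68 (282 ± 33.5 normalized counts with Th17 cells and 452 ± 42.4 with Th0 cells, limma adjusted p = 0.015). That call was lost without Th0 replicate 3 or Th17 replicate 1 or 3 (adjusted p 0.0821 to 0.105).

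Of 14 tested regulators that bind MMPs or act on them at the membrane, 2 rose and 5 fell (list median -0.05), or 1 and 5 of 13 (list median -0.08) without Lcn2, which passed the filter only through the Th9 libraries. The thrombospondins Thbs1 and Thbs2, which bind MMPs and aid their clearance, fell on the log2 scale (-2.91 and -0.64). Thbs1 averaged 164 ± 13.2 normalized counts with Th9 cells and 1246 ± 154 with Th0 cells (SD, n = 3 each, limma adjusted p = 1.1e-08). Lcn2, whose product binds Mmp9 and guards it from degradation in humans, averaged 60.7 ± 25.6 with Th9 cells and 1.33 ± 0.577 with Th0 cells (log2 fold change 4.68, which rests on the pseudocount, limma adjusted p = 9.1e-06).

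Of 16 tested AP-1, ETS and NF-kB factors, 11 rose and 1 fell with Th9 cells (list median 0.59), where 13.4% and 11.9% of all genes tested did. The NF-kB genes Relb (1.34), Nfkb2 (0.87) and Nfkb1 (0.74) rose, as did the AP-1 genes Fosl1 (0.86) and Junb (0.81) and the ETS gene Etv4 (0.67), with limma adjusted p 1.9e-05 to 2.3e-04. Fosl1 averaged 2624 ± 235 normalized counts with Th9 cells and 1442 ± 145 with Th0 cells (SD, n = 3 each). Fos, named after its value was seen, was the gene that fell (by 0.89, adjusted p = 0.0297). With Th17 cells Nfkb2 fell by 0.44 (limma adjusted p = 0.015), and the call was lost without Th0 replicate 3 or any 1 Th17 library (0.0803 to 0.122) and with the same total per library (0.134).

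Of 12 tested cytokines and receptors known to induce MMP genes, 7 rose and 2 fell with Th9 cells (list median 0.34), or 6 and 2 of 11 (list median 0.31) without Tnfrsf1b, which passed the filter only through the Th9 libraries. The interleukin-1 co-receptor Il1rap averaged 717 ± 17.9 normalized counts with Th9 cells and 225 ± 22.9 with Th0 cells (log2 fold change 1.67), and the oncostatin M receptor Osmr 219 ± 17.6 with Th9 cells and 42.0 ± 5.20 with Th0 cells (2.36). Lif (1.20) and Tgfb1 (1.16) rose too, while Tgfbr2 fell by 0.68 (limma adjusted p 4.9e-07 to 4.6e-04 for these 5 genes).

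Of 15 tested genes of matrix proteins that MMPs cut, 6 fell and 1 rose with Th9 cells (list median -0.25), or 5 and 1 of 14 (list median -0.24) without Col1a1, which passed the filter only through the Th0 libraries. Fibrillar collagen genes Col3a1 (-1.37) and Col5a1 (-1.36) and the type IV collagen genes Col4a1 (-0.81) and Col4a2 (-0.73) fell on the log2 scale (limma adjusted p 1.1e-06 to 1.8e-04). Col3a1 averaged 7539 ± 325 normalized counts with Th9 cells and 19447 ± 507 with Th0 cells (SD, n = 3 each). With Th17 cells 0 of 15 were called by limma, where 1.58% of all genes tested were.

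**Figure D5:**
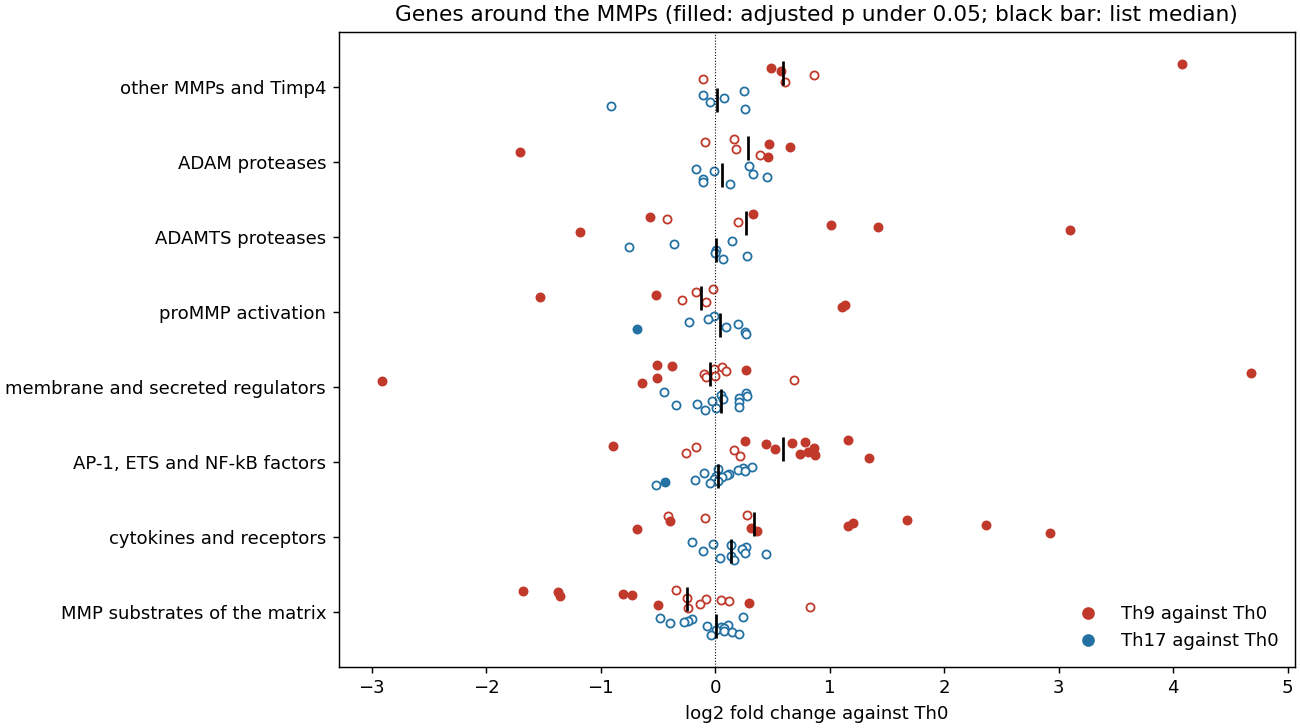
Log2 fold change against Th0 of each tested gene in the 8 lists, Th9 in red above Th17 in blue; filled points have an adjusted p under 0.05 and black bars are list medians. The medians for Th9 are 0.59 for the AP-1, ETS and NF-kB factors and -0.25 for matrix substrates, and those for Th17 lie between 0.01 and 0.14.

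Markers of T cells moved with the Th9 group. All 18 T cell markers were listed in the table with Th9, and 14 of the 16 tested rose in limma, 12 of which passed the filter only through the Th9 libraries. Of the 4 with a mean of at least 10 in both groups, 2 rose and 0 fell, where 13.4% and 11.9% of all genes tested did. In the table with Th17, 11 of 18 were listed, and their sum was 59 to 88 with Th17 cells and 90 to 185 with Th0 cells. T cells can express MMP genes, Mmp9 among them. Neutrophils and macrophages also store or make Mmp9 and Mmp12. Of 7 neutrophil markers 3 were listed, with a sum of 3 to 9 with Th9 cells and 7 to 37 with Th0 cells. S100a9 and Mpo were at 0 in all Th9 libraries, while Ly6g had 9, 3 and 4 there, against 2, 2 and 1 with Th0 cells. Of 8 myeloid markers 5 were listed, with a sum of 211 to 266 with Th9 cells and 167 to 314 with Th0 cells. Of the 4 myeloid markers tested, 1 rose and 1 fell by limma, where 13.4% and 11.9% of all genes tested did. The macrophage gene Lyz2, which passed the filter only through the Th0 libraries, had 0, 2 and 1 normalized counts with Th9 cells, against 33, 15 and 11 with Th0 cells. Cd14 went the other way, with 67, 63 and 58 against 41, 37 and 26 (log2 fold change 0.86, limma adjusted p = 0.0135). Fibroblasts are a source of Mmp3, Mmp13 and TIMPs, and 4 of 6 fibroblast markers were listed, with a sum of 887 to 982 with Th9 cells and 2390 to 2520 with Th0 cells. The 3 tested, Col6a1, Col6a2 and Pdgfra, all fell by limma, where 11.9% of all genes tested did. Each was well above 0 in every library, while Dcn had 0 to 3 normalized counts with Th9 cells and 8 to 9 with Th0 cells. The cultures are described as LLC1 cells with T cells, and these markers were not tied to a cell type. The 4 listed epithelial markers summed to 3995 to 4716 with Th9 cells and 4924 to 7003 with Th0 cells. Of the 2 tested, Krt8 fell (log2 fold change -0.97, limma adjusted p = 3.2e-04), where 11.9% of all genes tested did. Krt18 was not called (-0.32, limma adjusted p = 0.0899). The 7 B cell markers summed to 111 to 127 with Th9 cells and 100 to 330 with Th0 cells, and to 36 to 40 with Th17 cells and 103 to 339 with Th0 cells in the other table. Whether cells of these other types were present, and their part in the results, was not tested either.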

How the data were processed

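Total RNA of 9 samples (3 each with Th9, Th17 or Th0 cells) was sequenced from 1 µg input with a stranded total RNA kit, per the labels' protocols. Per the submitters' processing notes, the tools were DESeq2 1.62, featureCounts 1.4.5-p1, Subread and STAR 2.4.0a and the builds GRCm38 and mm10, without a stated role. The authors deposited 2 tables of 6 libraries holding scores, which are normalized counts rounded to whole numbers. The Th0 libraries stand in both and differ by 1 factor per library (1.02845, 1.02164 and 1.02619). No column of values was left unused (0). Approximate reads were obtained from the regular steps of the values and served for depth (12719428 to 17505356 per library) and for intervals on low counts.

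Samples were grouped by title. Genes whose mean reached 10 were fitted by limma-trend (limma 3.58.1, R 4.3.3) on log2(value + 1), with no term besides group, p-values were adjusted after Benjamini and Hochberg over all of them, and the procedure was tested on simulated data. For Th17 against Th9 the libraries were brought to 1 scale by median-of-ratios factors. Symbols and coordinates were taken from the tables and exon lengths from GENCODE M21. The protease to inhibitor ratio was given no p-value. Alternatives changed the pseudocount, filter, scaling, library weights, replicate block and libraries used.

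Members, lists and tests were chosen with earlier results of these data known. Named were the members, all other listed MMP and TIMP genes, and per list up to 6 called genes with the smallest adjusted p, of which 1 is not reported here. Fos, Tnfrsf1b, Col1a1, Ly6g, the fibroblast markers, Krt7, Krt19 and the genes named beside the chromosome 9 cluster were chosen after their values were seen.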

Additional observations from a re-analysis of the deposited data

Results flagged for a closer look

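The test of Th17 against Th9 called 4 members, which is also a test of the difference between their effects against the shared Th0 libraries. Mmp3 (-3.14) and Mmp13 (-3.24) were lower with Th17 than with Th9 cells on the log2 scale. Timp2 (0.73) and Timp3 (1.09) were higher with Th17 than with Th9 cells. Over all genes tested, 20.8% were called. Timp3 rests on few reads.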

How the results depend on the processing

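Over the alternatives tried for members and listed genes, 1745 values stayed on the same side of the threshold, 18 gained a call, 78 lost it and 10 changed sign, and the cause was not tested. Genes called for Th9 against Th0 (3653) numbered 6628 with library weights and 1853 to 5336 when 1 library was left out. Members lower with Th9 cells numbered 0 when libraries had equal totals and 1 to 2 when 1 library was left out, those higher 3 in all of the latter. For Th17 against Th0, genes called (226) numbered 626 with all 9 libraries in the fit, 3361 with library weights, 139 with the same total per library, 447 with that total after removal of mt-Rnr1, mt-Rnr2 and Gm26917, and 16 to 2352 when 1 library was left out, the highest without Th0 replicate 1. Members higher there numbered 1 with library weights, 1 with the total after removal of those RNA genes and 0 to 1 when 1 library was left out, and members lower 1 with library weights and 0 to 1. For Th17 against Th9, genes called (2993) numbered 4981 with library weights and 1987 to 4539 when 1 library was left out, and members higher 1 with a mean of at least 50, 1 with the same total and 1 to 3 when 1 library was left out. Changes of sign concerned Mmp24 with Th9 cells (0.02 with library weights, -0.34 to 0.05 when 1 library was left out), and with Th17 cells Mmp21 (-0.22 with library weights, -0.02 to 0.23 when 1 was left out), Mmp23 (-0.43 to 0.15) and Timp1 (-0.03 to 0.16), none called. Between samples of the same replicate number, correlations of deviations were 0.20, -0.02 and 0.24 for Th9 with Th0, and -0.06, -0.12 and 0.05 for Th17 with Th0. With 3 libraries per group, these values cannot settle whether the samples were paired. With the replicate block, 4076, 262 and 2865 genes were called for Th9 against Th0, Th17 against Th0 and Th17 against Th9, and 3 members rose and 2 fell with Th9 cells, as without it. Mmp23 with Th9 cells was called with the block (0.86, adjusted p = 0.0136). Few reads limit Mmp9 and Mmp10 with Th0 cells, Timp3, and the MMP genes below the filter.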

Other observations

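Genes that flank the MMP cluster within 500 kb were read after their values were seen. Birc3, an inhibitor of apoptosis and NF-kB target, averaged 60.7 normalized counts with Th9 cells and 27.0 with Th0 cells (log2 fold change 1.14, limma adjusted p = 0.00143), and 19.7 with Th17 cells and 27.7 with Th0 cells (-0.49, adjusted p = 0.35). Its neighbours Birc2 (390 with Th9 cells and 391 with Th0 cells), Tmem123 (log2 fold change 0.01) and Yap1 (0.09) were not called. On the other side of the cluster Dync2h1 rose by 0.36 with Th9 cells (adjusted p = 0.00455), and Dcun1d5 did not pass (0.30, adjusted p = 0.0596).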
